A study of Caenorhabditis elegans with 6 samples.

Results

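The transcriptome of control dauer larvae was described from 3 of the 6 mRNA-seq libraries of the study, those whose labels give the control strain CB1372, genotype *daf-7(e1372)*, and all biotypes of the deposited table of expected counts were kept. The *daf-7(e1372)* allele was also carried by the strain of the other libraries, which are not compared here. Embryos isolated with hypochlorite were kept at 24°C for 52 h, dauer larvae were picked by hand, and RNA was prepared from pools of whole larvae, so each library is an average over larvae and tissues. The labels number the control libraries as replicates 1, 2 and 3, although they speak of 2 biological replicates per strain, and nothing in them says which cultures the libraries came from. The spread between libraries may therefore be partly technical. The labels tie replicates 1 and 2, but not replicate 3, to the deposited genotype comparison, and replicate 3 is therefore set against replicates 1 and 2. The paper describes a screen for outlier samples by read quality and principal component analysis, but does not name any sample found. A single library has no replicate of its own, so differences between it and the others are described without a test or p-value.

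The dauer larva is an alternative to the third larval stage of *C. elegans*, entered when food is scarce or animals are crowded. It does not feed, has a thickened cuticle built largely from collagens, stores fat, moves little unless touched and survives stresses that kill other stages. DAF-7 is a TGF-beta-like ligand made by sensory neurons that promotes growth past this decision point, and animals with reduced *daf-7* function enter dauer even with food, more so at raised temperature. Known features of dauer metabolism are use of stored fat, conversion of fat to sugar by the glyoxylate shunt, and high levels of trehalose and of small chaperones.

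Expected counts summed to 18037874.02 in replicate 3, against 9099057.05 and 9558797.03 in replicates 1 and 2. Levels are given as normalized CPM, that is CPM after scaling by TMM factors, which were 1.13 for replicate 3 and 0.877 and 1.01 for replicates 1 and 2. The floor of detection was set at 3 counts, for counting error alone, which was 0.147 normalized CPM in replicate 3 and 0.376 and 0.312 in replicates 1 and 2. Replicate 3 was thus about as deep as both others together. The library kit named in the labels does not mark strand, so reads of overlapping genes on opposite strands were not told apart, and such overlaps are named here or beside the gene. Genes named for their own level that also overlap another gene were *cut-1* (with *C47G2.15*), *sod-3* (with *C08A9.3*), *hlh-1* (with *B0304.4*), *rrn-1.2* (with *F31C3.13*), *rrn-3.56* (with *F31C3.16*), *act-1* (with *T04C12.30*), *act-4* (with *M03F4.6*), *lfi-1* (with *ZC8.6*), *col-183* (with *F02D10.10*), *unc-22* (with *ZK829.9*), *act-3* (with *T04C12.26*), *rpl-7* (with *F53G12.9*), *pck-2* (with *R11A5.6* and *suro-1*), *hsp-90* (with *C47E8.4*), *ctl-2* (with *Y54G11A.7*) and *akt-1* (with *rop-1*).

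Many genes were detected at a low level in these larvae and few at a very high level. Of 46904 listed genes, 17359 had a count in at least 1 control library, and 11158 reached 1 normalized CPM in all 3, of which 10973 were protein-coding, out of 20191 protein-coding genes listed. A mean of at least 10 normalized CPM was reached by 8310 genes, at least 100 by 1754 and at least 1000 by 135. It took the top 401 genes of replicate 3 to collect 50% of its counts, against 298 in replicate 1 and 389 in replicate 2. For 90% of the counts the numbers were 4675 genes in replicate 3, against 3788 and 4022 in replicates 1 and 2. The 20 genes with the highest mean held 6.63% of the counts in replicate 3, against 19.7% and 16.8% in replicates 1 and 2, a mean of 14.4 ± 6.84% (SD, n = 3). These 20 were picked by the mean of the 3 libraries, so their share does not measure how even a library is. The top 100 genes of each library taken alone held 27.4% of its counts in replicate 3, against 35.4% and 32.2% in replicates 1 and 2. Replicate 3 was the most even of the libraries by its own top 100 and by the numbers of genes for 50% and 90%.

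The libraries were read for 13 genes known for high levels in dauer larvae. All 13 had a mean of at least 10 normalized CPM, a level reached by 8233 of the 20191 protein-coding genes. No other stage was compared, so this does not test the labelled stage. The 13 genes held 1.22% of the counts in replicate 3, against 2.00% and 2.65% in replicates 1 and 2. *cut-1*, a cuticlin of the dauer cuticle, had 1744 normalized CPM in replicate 3, against 4779 and 4458 in replicates 1 and 2. *icl-1*, the enzyme of the glyoxylate shunt, had 1385 normalized CPM in replicate 3, against 3568 and 1709.6 in replicates 1 and 2. *sod-3*, a mitochondrial superoxide dismutase, had 240.2 in replicate 3, against 141 and 183 in replicates 1 and 2. The dauer markers were thus present in each library. The 3 highest members, *col-2*, *cut-1* and *icl-1*, were lowest in replicate 3. Of all 13, 5 were highest and 7 lowest in replicate 3, against 37% and 43.9% of all genes with a mean of at least 10 normalized CPM. Markers of gut, body wall muscle, pharynx, neurons and epidermis were also detected in each library, and *hlh-1*, the muscle-fate transcription factor, had 11.7 in replicate 3, against 19.0 and 18.9 in replicates 1 and 2, close between replicates 1 and 2.

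Protein-coding genes took up 98.7% of replicate 3's counts, against 89.1% and 97.1% in replicates 1 and 2. Most of the difference in replicate 1 was in ribosomal RNA, whose biotype held 0.128% in replicate 3, against 8.64% and 1.44% in replicates 1 and 2. Genes listed as ncRNA held 0.599% in replicate 3, against 1.11% and 0.772% in replicates 1 and 2. Pseudogenes held 0.421% in replicate 3, against 1.09% and 0.534% in replicates 1 and 2. Each of these was lowest in replicate 3 and highest in replicate 1. LincRNAs held 0.108% in replicate 3, against 0.0826% and 0.161% in replicates 1 and 2. Antisense RNAs held 0.0144% in replicate 3, against 0.0124% and 0.0160% in replicates 1 and 2. SnoRNAs held 0.00123% in replicate 3, against 0.00120% and 0.00172% in replicates 1 and 2. None of the 260 miRNA, 15363 piRNA and 634 tRNA genes had a count, and the 129 snRNA genes had 3 counts in all, in *sup-39* in replicate 2. For a gene with 0 counts the floor of 3 counts is the upper limit that the depth allows, and small RNAs are not what a poly(A) mRNA library is made to capture. The mitochondrial genome held 0.942% in replicate 3, against 0.676% and 0.735% in replicates 1 and 2.

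The ribosomal RNA share rested on a few loci, with counts in 6 of the 22 genes of that biotype. In replicate 3, ncRNAs and pseudogenes each held more of the counts than ribosomal RNA did. The highest gene of all by mean CPM was *rrn-3.1*, a 26S ribosomal RNA gene (WBGene00004622, WBcel235 chromosome I, 15064838 to 15068346, forward strand), with 551 normalized CPM in replicate 3, against 92353 and 9238 in replicates 1 and 2. The 18S genes *rrn-1.1* and *rrn-1.2* are copies among which reads may be split, and *rrn-1.1* had 89.1 in replicate 3, against 4557 and 2846 in replicates 1 and 2. The ncRNAs *F31C3.14* and *F31C3.15*, which overlap *rrn-3.1* and *rrn-1.1*, and the pseudogene *rrn-3.56*, a 26S-like sequence, were likewise highest in replicate 1 and lowest in replicate 3. In each of these loci replicate 3 was more than 10-fold below both others.

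The lincRNAs were led by *lep-5* (WBGene00010424, WBcel235 chromosome X, 12652591 to 12653520, reverse strand), a regulator of developmental timing, with 806 normalized CPM in replicate 3, against 782 and 1306 in replicates 1 and 2, or 965 ± 296 (SD, n = 3), rank 143 of all genes. The pseudogene *F07H5.5* had 1390.4 normalized CPM in replicate 3, against 1401 and 1862 in replicates 1 and 2, and its highest library was only 1.34 times its lowest. *K11D9.5* led the antisense RNAs with 72.1 in replicate 3, against 90.6 and 95.9 in replicates 1 and 2. Of these, *lep-5* and *F07H5.5* were nearly level between replicates 3 and 1.

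**Figure D1:**
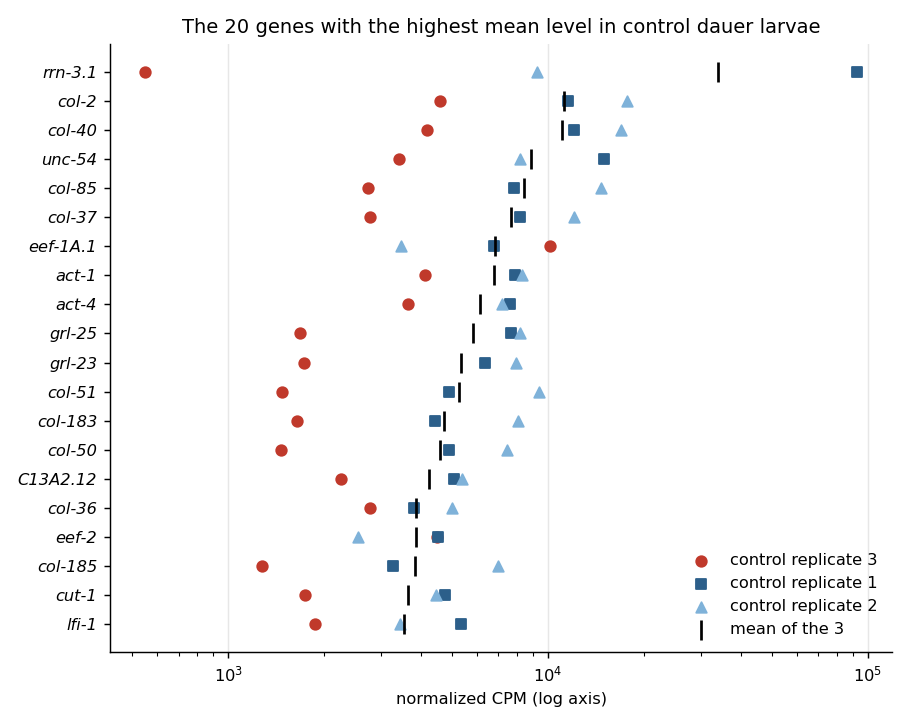
Normalized CPM on a log axis of the 20 genes with the highest mean, in control replicate 3 (circles), replicate 1 (squares) and replicate 2 (triangles), with the mean of the 3 as a bar. Collagens fill 9 of the 20 lines, and replicate 3 is lowest in each of those 9, while *eef-1A.1* has its highest level in replicate 3 (10157 normalized CPM).

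Among protein-coding genes, the cuticle, contractile and translation machinery filled the top ranks. Of the 20 genes with the highest mean CPM, 9 were collagens, all 9 of them on the list of 24 collagens that the study calls dauer-enriched from stage data of other animals. The others included the body wall muscle myosin *unc-54*, the actins *act-1* and *act-4*, the hedgehog-related genes *grl-23* and *grl-25*, the elongation factors *eef-1A.1* and *eef-2*, the cuticlin *cut-1*, *lfi-1*, which encodes a partner of the spindle protein LIN-5, and *C13A2.12*, a gene without a name of its own. Only 5 genes stood in the top 20 of each library taken alone, and 44 stood in the top 100 of each. Replicates 3 and 1 shared 7 of their top 20 and 54 of their top 100. Replicates 3 and 2 shared 5 and 45, against 14 and 69 shared by replicates 1 and 2.

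CPM favours long genes, so levels of different genes were also set on a per-length scale, counts per kilobase of exon scaled to the same total in each library. On this scale 15 of the top 20 genes by CPM stayed in the top 20. *col-2* had rank 1 per length, *col-40* rank 2, *rrn-3.1* rank 3, *col-85* rank 4 and *col-37* rank 5, followed by *ZK863.10*, *C13A2.12*, *Y119D3B.21*, *act-1* and *col-183*. *ZK863.10* is a short ncRNA that overlaps *col-37*, so its reads and those of *col-37* were not told apart. *unc-54*, with 6204 bases of exon, ranked 4 by CPM but 114 per length, and *lfi-1* with 8434 bases ranked 20 by CPM but 312 per length. *Y119D3B.21*, with 201 bases, ranked 119 by CPM but 8 per length.

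Collagens held more of the counts of replicates 1 and 2 than any other protein-coding family examined. Genes named *col*, which encode the small triple-helical proteins of the cuticle, numbered 159, of which 95 had a mean of at least 10 normalized CPM and 19 a mean of at least 1000. They held 5.07% of the counts in replicate 3, against 8.33% and 14.5% in replicates 1 and 2. The 24 dauer-enriched collagens alone held 3.93% of the counts in replicate 3, against 6.84% and 12.2% in replicates 1 and 2, so that most collagen counts in each library came from these 24 genes. *col-2* (WBGene00000593, WBcel235 chromosome IV, 10084454 to 10085438, reverse strand), the first of them, had 4609 normalized CPM in replicate 3, against 11522 and 17596 in replicates 1 and 2, or 11242 ± 6498 (SD, n = 3). *col-40* had 4200.1 in replicate 3, against 12032 and 16878 in replicates 1 and 2. *col-85* had 2741 in replicate 3, against 7848 and 14649.5 in replicates 1 and 2. In each of these genes replicate 2 was highest and replicate 3 lowest.

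The dauer-enriched collagens spanned a wide range among themselves. Of the 24, 23 had a mean of at least 10 normalized CPM, 15 at least 1000, and *col-83* was near the floor, with 0.343 in replicate 3, against 0.125 and 0.312 in replicates 1 and 2. *col-43*, at 2742 in replicate 3, against 3011 and 3807 in replicates 1 and 2, and *col-84* (overlapping *npp-3*), at 1410.0 in replicate 3, against 1466 and 2312 in replicates 1 and 2, had the smallest ratios between libraries of those at 10 normalized CPM or more, whereas *col-51* had 1479 in replicate 3, against 4904 and 9385 in replicates 1 and 2. The highest library was replicate 2 in 21 of the 23, and the lowest was replicate 3 in 22 with TMM factors and 18 with library totals. Of all genes with a mean of at least 10 normalized CPM, replicate 2 was highest in 34.3% and replicate 3 lowest in 43.9% with TMM factors and 32.8% with library totals. The median log2 ratio of replicate 3 over the mean of replicates 1 and 2 was -1.37, against -0.12 over all 8310 genes. *col-163* was the single member of the 23 that was not lowest in replicate 3 with TMM factors, with 58.6 in replicate 3, against 20.7 and 57.3 in replicates 1 and 2.

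The 23 collagens that the study lists as adult-enriched, again from other animals, were low in these larvae. They held 0.0894% of the counts in replicate 3, against 0.0150% and 0.0170% in replicates 1 and 2, and none had a mean of 100 normalized CPM. Their highest member, *col-181*, had 139 normalized CPM in replicate 3, against 10.9 and 11.11 in replicates 1 and 2. *col-122*, which overlaps *lron-14*, had 97.9 in replicate 3, against 3.88 and 7.58 in replicates 1 and 2. *col-184* had 70.9 in replicate 3, against 31.6 and 40.3 in replicates 1 and 2. Of the 12 with a mean of at least 10 normalized CPM, 10 were highest in replicate 3, against 37% of all genes, and the median log2 ratio of replicate 3 over the mean of the others was 3.06. That mean includes replicate 3, so a low gene could enter the 12 through a high level there. Over all 23 members the median was 2.58. Of the 12, the single one lowest in replicate 3 was *col-96*, with 0.0490 in replicate 3, against 32.6 and 1.14 in replicates 1 and 2. The collagens of the 2 stage lists thus had medians of opposite sign in replicate 3, with TMM factors, RLE factors and library totals alike.

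**Figure D2:**
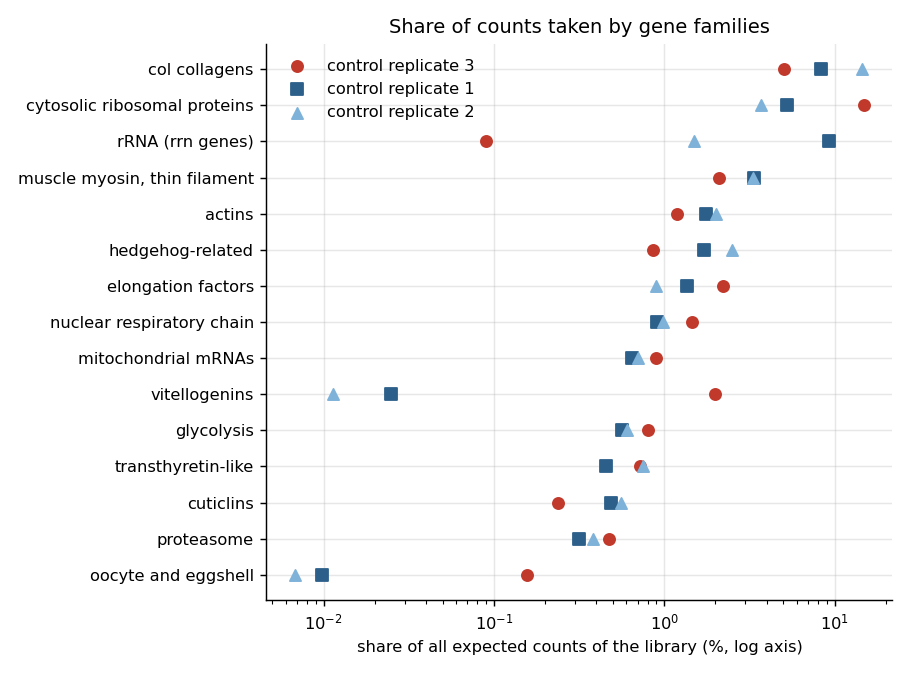
Share of all expected counts (%, log axis) held by 15 gene families in control replicate 3 (circles), replicate 1 (squares) and replicate 2 (triangles). The *col* collagens held 5.07% of replicate 3 and 8.33% and 14.5% of replicates 1 and 2, and ribosomal proteins 14.9% of replicate 3 and 5.25% and 3.71% of replicates 1 and 2, while proteasome, glycolysis and mitochondrial genes lay close together.

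Other proteins of the body surface were high too. The cuticlins, zona pellucida domain proteins of the cuticle, held 0.238% of the counts in replicate 3, against 0.485% and 0.558% in replicates 1 and 2, most of it in *cut-1*. Secreted hedgehog-related proteins of the epidermis, counted over 61 genes, held 0.865% of the counts in replicate 3, against 1.71% and 2.50% in replicates 1 and 2. Most of this came from 3 ground-like genes, of which *grl-25* overlaps *ZK638.1*. *grl-25* had 1679.8 normalized CPM in replicate 3, against 7660.2 and 8172 in replicates 1 and 2. *grl-23* had 1733 in replicate 3, against 6341 and 7962 in replicates 1 and 2. *grl-20* had 1209 in replicate 3, against 1925 and 3266 in replicates 1 and 2. Of the 31 hedgehog-related genes with a mean of at least 10 normalized CPM, 22 were highest in replicate 2 and 21 lowest in replicate 3, with a median log2 ratio of -0.88 for replicate 3 over the others. Cuticlins had a median of -1.03 over 14 genes, of which 10 were lowest in replicate 3. With library totals, replicate 3 was lowest in 17 of 31 hedgehog-related genes and 9 of 14 cuticlins. Over all genes it was lowest in 43.9% with TMM factors and 32.8% with library totals, and replicate 2 was highest in 34.3% with TMM factors.

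Muscle proteins were the next group. The 23 myosin and thin filament genes held 2.11% of the counts in replicate 3, against 3.36% and 3.31% in replicates 1 and 2, and the 5 actins held 1.20% of the counts in replicate 3, against 1.76% and 2.00% in replicates 1 and 2. *unc-54* (WBGene00006789, WBcel235 chromosome I, 14855901 to 14863573, reverse strand), the major myosin heavy chain of body wall muscle, had 3415 normalized CPM in replicate 3, against 14943 and 8195 in replicates 1 and 2. *unc-15*, the paramyosin gene, had 1739 in replicate 3, against 4446 and 4251 in replicates 1 and 2. *pat-10*, the body wall troponin C, had 2593 in replicate 3, against 2421 and 3596 in replicates 1 and 2. The giant protein gene *unc-22* had 209.6 in replicate 3, against 1850.4 and 763 in replicates 1 and 2. The long genes *unc-54* and *unc-22* were highest in replicate 1, while the short gene *pat-10* had a ratio of 1.49 between its highest and lowest library. *act-1* and *act-3* are near-identical copies whose reads may be split between them, and *act-1* had 4132 in replicate 3, against 7879.9 and 8317 in replicates 1 and 2. *unc-54* and *unc-22* have 6204 and 23368 bases of exon, against 979 in *pat-10*. Protein-coding genes above 5000 bases had a median log2 ratio of -0.96 for replicate 3 over the mean of the others. The part of exon length in the levels of the muscle genes was not tested. In bulk RNA, fewer cells of a type and less RNA per cell also cannot be told apart.

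Ribosomal proteins were the largest family in replicate 3. The 82 genes of the cytosolic ribosome held 14.9% of the counts in replicate 3, against 5.25% and 3.71% in replicates 1 and 2, a mean of 7.95 ± 6.06% (SD, n = 3), which was 4.48% over replicates 1 and 2 alone. *rpl-3* had 3936 normalized CPM in replicate 3, against 2291 and 1271 in replicates 1 and 2. *rpl-7* had 3148 in replicate 3, against 1523 and 1003 in replicates 1 and 2. *rla-0* had 3038 in replicate 3, against 1488 and 891 in replicates 1 and 2. Of the 80 ribosomal protein genes with a mean of at least 10 normalized CPM, all 80 were highest in replicate 3, against 37% of all genes, and 78 were lowest in replicate 2, against 34.5%. The median log2 ratio of replicate 3 over the mean of the others was 1.46, and 18 of the 80 differed by at least 4-fold between their highest and lowest library, against 11.4% of all genes. No ribosomal protein gene of the 80 had its highest library within 25% of its lowest, after adding 1 normalized CPM to each, against 9.74% of all genes. The order of the libraries was therefore the reverse of that in the dauer-enriched collagens.

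Elongation factors shared part of this pattern. Their 6 genes held 2.23% of the counts in replicate 3, against 1.36% and 0.901% in replicates 1 and 2. *eef-1A.1*, which delivers tRNAs to the ribosome, had 10157 normalized CPM in replicate 3, against 6800.1 and 3460.2 in replicates 1 and 2. Its close copy *eef-1A.2* had 2135 in replicate 3, against 2485 and 1688 in replicates 1 and 2. *eef-2*, which moves the ribosome along the mRNA, had 4492 in replicate 3, against 4537 and 2539 in replicates 1 and 2. All 6 were lowest in replicate 2, against 34.5% of all genes, but *eef-2* was level between replicates 3 and 1.

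Genes of energy metabolism were among the steadier of the abundant groups. The 12 mRNAs of the mitochondrial genome held 0.897% of the counts in replicate 3, against 0.650% and 0.702% in replicates 1 and 2. *ctc-1*, a subunit of cytochrome oxidase, had 2279.7 normalized CPM in replicate 3, against 2709 and 2667 in replicates 1 and 2. *ctb-1*, cytochrome b, had 971 in replicate 3, against 998 and 962 in replicates 1 and 2. Of the 8 with a mean of at least 10 normalized CPM, 4 were within 25% in all libraries and all 8 were within 2-fold, against 9.74% and 53.6% of all genes. Nuclear genes of the ATP synthase and respiratory chain held 1.45% of the counts in replicate 3, against 0.907% and 0.988% in replicates 1 and 2, with 11 of 36 within 25% and 30 within 2-fold. *atp-1* had 1706 in replicate 3, against 1684 and 1305 in replicates 1 and 2. *atp-2* had 1699 in replicate 3, against 1609 and 1308 in replicates 1 and 2. Both were close in replicates 3 and 1.

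Sugar metabolism was measured in both directions. The 19 glycolytic genes held 0.805% of the counts in replicate 3, against 0.565% and 0.604% in replicates 1 and 2, and 7 of 18 were within 25%, against 9.74% of all genes. *gpd-3*, a glyceraldehyde phosphate dehydrogenase, had 1618 normalized CPM in replicate 3, against 1261 and 1041 in replicates 1 and 2. *enol-1*, enolase, had 779.9 in replicate 3, against 827 and 1026 in replicates 1 and 2. The 8 genes of gluconeogenesis and the glyoxylate shunt held 0.575% of the counts in replicate 3, against 0.712% and 0.520% in replicates 1 and 2. *pck-2*, a phosphoenolpyruvate carboxykinase, had 1612 in replicate 3, against 2226 and 1627 in replicates 1 and 2. *mdh-1*, a malate dehydrogenase, had 706 in replicate 3, against 756 and 789.7 in replicates 1 and 2. The median of these genes in replicate 3 over the others was -0.13 with TMM factors and changed sign to 0.13 with library totals.

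Genes of water loss, heat and oxidative stress were present at intermediate levels. *tps-1*, a trehalose phosphate synthase, had 161 normalized CPM in replicate 3, against 297 and 193 in replicates 1 and 2. *tps-2* (overlapping *arl-3* and *F19H8.2*) had 201 in replicate 3, against 537 and 261 in replicates 1 and 2. Both synthase genes were highest in replicate 1. *lea-1* (overlapping *acl-2*), a late embryogenesis abundant protein of drying larvae, had 932 in replicate 3, against 688 and 488 in replicates 1 and 2. *dur-1* (overlapping *bed-3*), a gene known to be expressed in dauer larvae, had 564 in replicate 3, against 832 and 1201 in replicates 1 and 2. The small heat shock gene *hsp-16.11*, whose near-identical copies may share its reads, had 624 normalized CPM in replicate 3, against 1683 and 726 in replicates 1 and 2. *hsp-16.49* had 359 in replicate 3, against 658 and 386 in replicates 1 and 2. Both were highest in replicate 1 and lowest in replicate 3. *hsp-12.6* had 328 in replicate 3, against 108 and 82.6 in replicates 1 and 2. *sip-1*, a small chaperone of embryos, had 642 in replicate 3, against 141 and 119.95 in replicates 1 and 2. The order of libraries thus differed between small chaperones, with *hsp-12.6* and *sip-1* highest in replicate 3.

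The ATP-driven chaperones were higher in counts. *hsp-90*, the cytosolic HSP90, had 2863 normalized CPM in replicate 3, against 3143 and 2009 in replicates 1 and 2. *hsp-1*, an HSP70, had 2410.3 in replicate 3, against 3422 and 1445 in replicates 1 and 2. *hsp-110* had 386 in replicate 3, against 1683 and 565 in replicates 1 and 2. Their median in replicate 3 over the others was -0.04 with TMM factors and 0.26 with library totals, so its sign depends on the scaling. The catalase gene *ctl-2* had 323 in replicate 3, against 496 and 649 in replicates 1 and 2. Its close copy *ctl-1* had 241 in replicate 3, against 419 and 516 in replicates 1 and 2. Both catalase genes were lowest in replicate 3. *ftn-2*, ferritin, was even, with 379 in replicate 3, against 407 and 334 in replicates 1 and 2. *mtl-1*, metallothionein, had 605 in replicate 3, against 297 and 479 in replicates 1 and 2.

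Genes of protein turnover were among the more even ones. Of 32 proteasome genes with a mean of at least 10 normalized CPM, 10 were within 25% and 30 within 2-fold, against 9.74% and 53.6% of all 8310 genes. The family held 0.475% of the counts in replicate 3, against 0.316% and 0.382% in replicates 1 and 2. *rpn-6.1*, a lid subunit, had 162 normalized CPM in replicate 3, against 159 and 166 in replicates 1 and 2. *rpn-2* had 273 in replicate 3, against 248 and 245 in replicates 1 and 2. The lysosomal and gut proteases were less even. *asp-1*, an aspartyl protease of the gut, had 1733 in replicate 3, against 3205 and 654 in replicates 1 and 2. *cpl-1*, a cathepsin L, had 1013 in replicate 3, against 1135 and 811 in replicates 1 and 2. *far-1* and *far-2* encode secreted carriers of fatty acids and retinol. *far-1* had 2121 normalized CPM in replicate 3, against 1447 and 1132 in replicates 1 and 2. *far-2* had 679 in replicate 3, against 259 and 92.6 in replicates 1 and 2. The transthyretin-like family held 0.718% of the counts in replicate 3, against 0.457% and 0.754% in replicates 1 and 2. It was led by *ttr-16* (overlapping *lin-3*), with 1319 in replicate 3, against 1198 and 1955 in replicates 1 and 2.

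Neuropeptide genes were widely detected. Of 31 FMRFamide-like peptide genes, 30 had a mean of at least 10 normalized CPM, and 22 of the 30 were within 2-fold, against 53.6% of all genes. *flp-14* had 89.9 normalized CPM in replicate 3, against 104.2 and 114 in replicates 1 and 2. *flp-16* (overlapping *romo-1*) had 106 in replicate 3, against 139 and 253 in replicates 1 and 2. Of 76 *nlp* genes, 51 reached the same mean, with *nlp-12*, a cholecystokinin-like peptide, at 289.5 in replicate 3, against 191 and 510.3 in replicates 1 and 2. Both groups were most often lowest in replicate 1, in 22 of 30 and in 28 of 51 genes, against 21.6% of all genes. Both are short, with median exon lengths of 644.5 and 596 bases. Protein-coding genes of 500 to 1000 bases had median log2 ratios over replicate 1 of 0.32 in replicate 3 and 0.16 in replicate 2. The part of exon length in the order of the peptide genes was not tested. Insulin-like peptides were low, with 4 of 40 at a mean of 10 normalized CPM or more, and *ins-18* had 34.1 in replicate 3, against 44.98 and 82.1 in replicates 1 and 2. Of 1628 chemoreceptor genes, 1026 had no count and 4 reached 10 normalized CPM, among them *srr-4* with 129.9 in replicate 3, against 86.8 and 83.9 in replicates 1 and 2.

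Receptors and detoxification enzymes were numerous but low. Of 282 nuclear hormone receptor genes, 64 had a mean of at least 10 normalized CPM and 3 a mean of at least 100, of which *nhr-97* had 226 normalized CPM in replicate 3, against 364 and 426 in replicates 1 and 2. *nhr-49*, a regulator of fat metabolism, had 115 in replicate 3, against 135 and 115 in replicates 1 and 2. Replicate 3 was lowest in 40 of the 64 with TMM factors and in 29 with library totals, against 43.9% and 32.8% of all genes. Cytochrome P450 genes, which oxidize foreign and internal compounds, held 0.186% of the counts in replicate 3, against 0.167% and 0.141% in replicates 1 and 2. UDP-glucuronosyltransferases held 0.117% of the counts in replicate 3, against 0.134% and 0.128% in replicates 1 and 2. Glutathione S-transferases held 0.188% of the counts in replicate 3, against 0.166% and 0.189% in replicates 1 and 2. The medians of these 3 families in replicate 3 over the others were below 0 with TMM factors and above 0 with library totals. The 264 C-type lectin genes held 0.288% of the counts in replicate 3, against 0.338% and 0.308% in replicates 1 and 2. Of these 35 reached a mean of 10 normalized CPM, and *clec-63* had 663 in replicate 3, against 1144 and 416 in replicates 1 and 2.

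The pathways that control dauer entry were read gene by gene. *daf-16*, the FOXO transcription factor of the insulin pathway, had 189 normalized CPM in replicate 3, against 353 and 323 in replicates 1 and 2, or 288 ± 87.5 (SD, n = 3). *daf-2*, the insulin receptor, had 112 in replicate 3, against 188 and 108 in replicates 1 and 2. *akt-1*, a kinase below it, was nearly level, with 303 in replicate 3, against 328 and 328 in replicates 1 and 2. Insulin signalling through these kinases keeps DAF-16 out of the nucleus. *daf-12*, the steroid hormone receptor, had 143 in replicate 3, against 297 and 221 in replicates 1 and 2. *daf-9*, the P450 that makes its ligand, had 0 in replicate 3, against 2.00 and 0 in replicates 1 and 2, below the floor in replicates 3 and 2. In *daf-16* and *daf-12* replicate 3 was lowest, whereas *daf-2* was level between replicates 3 and 2. In the TGF-beta branch, *daf-7* itself had 29.9 normalized CPM in replicate 3, against 44.0 and 44.2 in replicates 1 and 2. The receptor gene *daf-4* (overlapping *C05D2.11*) had 60.3 in replicate 3, against 80.1 and 64.9 in replicates 1 and 2. The antagonist *daf-3* had 22.8 in replicate 3, against 31.6 and 32.0 in replicates 1 and 2. The presence of *daf-7* mRNA in a *daf-7* mutant is a level of the transcript only. *sgk-1*, a kinase, had 0.196 in replicate 3, against 12.03 and 20.8 in replicates 1 and 2. Of the 16 regulators with a mean of at least 10 normalized CPM, 13 were lowest in replicate 3 with TMM factors and 10 with library totals, against 43.9% and 32.8% of all genes on these scales. The median exon length of these 16 was 2577 bases, against 1614 for all genes with that mean, and the part of exon length was not tested.

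Heterochronic genes, which set the timing of larval cell fates, were at 0 to moderate levels. *lin-41*, an RNA-binding protein that blocks adult fates, had 172 normalized CPM in replicate 3, against 369 and 205 in replicates 1 and 2, or 249 ± 105 (SD, n = 3). *lin-42*, the period-like gene, had 90.03 in replicate 3, against 312 and 168 in replicates 1 and 2. *lin-28* had 33.9 in replicate 3, against 41.5 and 47.9 in replicates 1 and 2. In these 3 genes replicate 3 was lowest. *lin-29* (overlapping *hmg-12*), the transcription factor of the larval-to-adult switch, had 4.85 normalized CPM in replicate 3, against 20.05 and 15.5 in replicates 1 and 2. *lin-46* had 0 in replicate 3, against 4.26 and 8.41 in replicates 1 and 2. In both replicate 3 was again lowest. *lin-14*, which holds back later fates, had 28.5 in replicate 3, against 45.1 and 28.6 in replicates 1 and 2. *hbl-1* had 17.4 in replicate 3, against 33.2 and 21.4 in replicates 1 and 2. All 6 genes with a mean of at least 10 normalized CPM were lowest in replicate 3 with TMM factors, and 4 of the 6 with library totals, against 43.9% and 32.8% of all genes. These 6 are long, with a median exon length of 3837 bases. Their median log2 ratio of replicate 3 over the others was -0.68, against -0.47 for protein-coding genes of 3000 to 5000 bases. The part of exon length in this order was not tested.

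Over all 8310 genes with a mean of at least 10 normalized CPM, steadiness was read from the ratio of the highest to the lowest library after adding 1 normalized CPM. The highest library was at most 25% above the lowest in 809 genes (9.74%), the ratio was at most 2 in 4457 (53.6%) and at least 4 in 950 (11.4%). With fewer libraries the number of steady genes was higher by construction, at 2026 without replicate 1, 2220 without replicate 2 and 3358 without replicate 3. The number of variable genes was 769 without replicate 1, 437 without replicate 2 and 134 without replicate 3. Between single pairs, Pearson's r of log2 levels across the 8310 genes was 0.807 for replicates 3 and 1 and 0.734 for replicates 3 and 2, against 0.910 for replicates 1 and 2. Genes are not independent replicates, and these values are a description. The biological coefficient of variation (edgeR) was taken on other gene sets, the protein-coding genes that passed edgeR's expression filter in the libraries used. These numbered 11767 for replicates 3 and 1, 11399 for replicates 3 and 2, 11601 for replicates 1 and 2 and 10955 over all 3. The coefficient was 0.504 for replicates 3 and 1 and 0.570 for replicates 3 and 2, against 0.361 for replicates 1 and 2, and 0.485 over all 3.

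The most abundant genes were not the steadiest. Among the 135 genes with a mean of at least 1000 normalized CPM, the median ratio of the highest to the lowest library was 2.86 and 24.4% differed by at least 4-fold. Among the 1619 genes between 100 and 1000 these values were 1.91 and 10.4%, and among the 6556 between 10 and 100 they were 1.91 and 11.4%. The steadiest gene with a mean of at least 100 normalized CPM was *lmp-1* (WBGene00003053, WBcel235 chromosome X, 6376459 to 6377684, reverse strand), a lysosomal membrane protein, with 260.0 normalized CPM in replicate 3, against 264 and 264 in replicates 1 and 2, a coefficient of variation of 0.854%. *dhs-3*, a dehydrogenase of lipid droplets, had 109 in replicate 3, against 109 and 113 in replicates 1 and 2. *eri-12* had 141.9 in replicate 3, against 147 and 147 in replicates 1 and 2. *Y71G12B.25* had 121 in replicate 3, against 119 and 122 in replicates 1 and 2. The other 4 of the 8 steadiest were *ctb-1*, the proteasome genes *rpt-5* and *rpn-6.1*, and *rbm-25*, an RNA-binding protein of splicing. Of the 8, 2 were proteasome genes and 1 was an mRNA of the mitochondrial genome. These groups had 23 and 8 of the 1754 genes with a mean of at least 100 normalized CPM.

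Genes often used to scale qPCR in *C. elegans* differed among themselves. *tba-1*, an alpha tubulin, was the most even of the 13 examined, with 485 normalized CPM in replicate 3, against 535 and 527 in replicates 1 and 2, a ratio of 1.103. *pmp-3*, a peroxisomal transporter, had 66.4 in replicate 3, against 87.5 and 77.1 in replicates 1 and 2. *act-1* had a ratio of 2.01, *ama-1*, the large subunit of RNA polymerase II, a ratio of 2.62, and *rpl-32*, a ribosomal protein gene overlapping *T24B8.2*, a ratio of 3.43. *tba-1* was the only one of the 13 within 25%, and 8 of the 13 were within 2-fold, shares near the 9.74% and 53.6% of all genes.

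**Figure D3:**
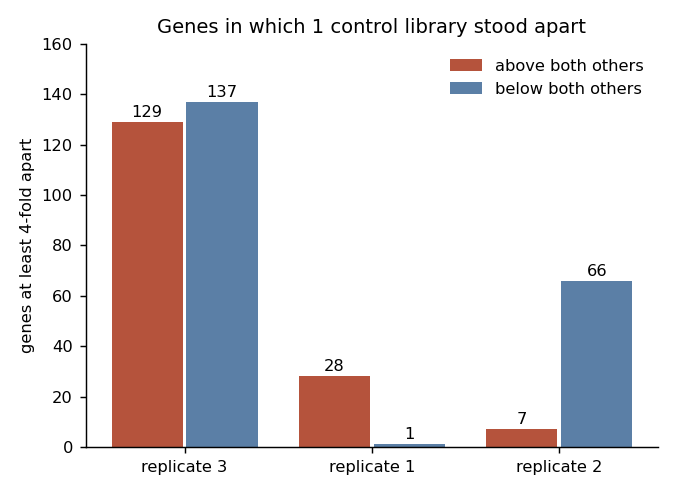
Number of genes, of 8310 with a mean of at least 10 normalized CPM, in which 1 control library was at least 4-fold above or below both others (CPM plus 1). Replicate 3 had 129 above and 137 below, replicate 1 had 28 and 1, and replicate 2 had 7 and 66.

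A library was said to stand apart in a gene where it was at least 4-fold above the higher, or at least 4-fold below the lower, of the other libraries. Replicate 3 stood above in 129 genes (1.55%) and below in 137 (1.65%). Replicate 1 stood above in 28 (0.337%) and below in 1 (0.012%), and replicate 2 above in 7 (0.0842%) and below in 66 (0.794%). The split of replicate 3 depended on the scaling, being 129 above and 137 below with TMM factors and 196 above and 75 below with library totals. The median log2 ratio of replicate 3 over the mean of the others across all genes was -0.12 with TMM factors, -0.11 with RLE factors and 0.14 with library totals, and family medians are to be read relative to it. Of these genes of replicate 3, 11 above and 34 below had a mean of at least 100 normalized CPM, a level reached by 1754 of the 8310 genes.

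**Figure D4:**
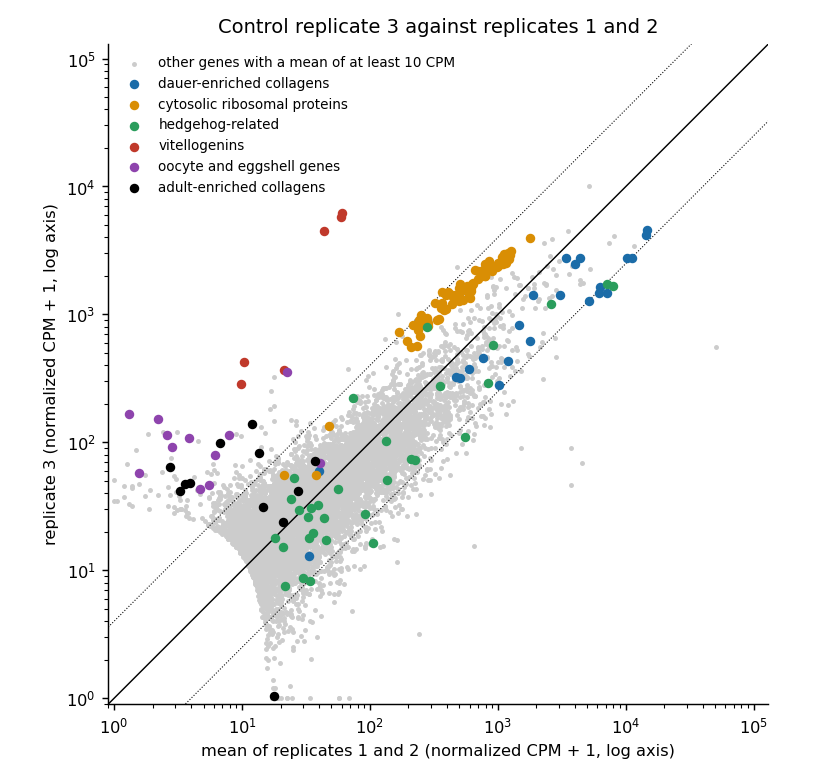
Level in control replicate 3 against the mean of replicates 1 and 2, both as normalized CPM plus 1 on log axes, for genes with a mean of at least 10 normalized CPM, with the line of equality (solid) and the 4-fold lines (dotted). Vitellogenins (6 genes) and 11 of 12 oocyte and eggshell genes lie above the upper dotted line, ribosomal proteins lie in a tight band above equality, and dauer-enriched collagens lie below equality except *col-163*.

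Yolk, oocyte and eggshell genes were among those furthest above in replicate 3. The vitellogenins, yolk proteins made by the adult hermaphrodite gut, held 1.98% of the counts in replicate 3, against 0.0250% and 0.0114% in replicates 1 and 2, a mean of 0.673 ± 1.13% (SD, n = 3) that was 0.0182% over replicates 1 and 2 alone. *vit-2* (WBGene00006926, WBcel235 chromosome X, 5101032 to 5106173, forward strand), the highest of them, had 6212 normalized CPM in replicate 3, against 84.5 and 35.1 in replicates 1 and 2. *vit-6* had 5737 in replicate 3, against 88.1 and 28.2 in replicates 1 and 2. *vit-5* had 4497 in replicate 3, against 64.3 and 20.8 in replicates 1 and 2. In each of these replicate 3 was highest and replicate 2 lowest. The levels of *vit-4*, *vit-3* and *vit-1* lay between 286 and 424 in replicate 3, against 10.3 to 25.7 in replicate 1 and 6.02 to 14.7 in replicate 2. *vit-3*, *vit-4* and *vit-5* are close copies among which reads may be split. All 6 yolk genes were at least 4-fold above both other libraries in replicate 3, against 1.55% of all genes, and each was above the floor in replicates 1 and 2 too. The mean of 10 normalized CPM needed for this call includes replicate 3, so a gene could reach it through replicate 3.

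Genes of the oocyte and eggshell shared this order. *perm-4*, an eggshell permeability protein, had 164 normalized CPM in replicate 3, against 0.501 and 0.104 in replicates 1 and 2, where the level in replicate 2 was under the floor of 3 counts. *puf-5*, an RNA-binding protein of oocytes, had 152 in replicate 3, against 2.38 and 0 in replicates 1 and 2. *cbd-1*, a chitin-binding eggshell protein, had 355 in replicate 3, against 27.9 and 14.9 in replicates 1 and 2. All 12 genes on this list had a mean of at least 10 normalized CPM. Of the 12, 12 were highest in replicate 3 and 11 stood above both others there, against 37% and 1.55% of all genes. The one that did not stand above was *mex-3*, with 68.6 in replicate 3, against 46.2 and 32.9 in replicates 1 and 2. The mean of 10 normalized CPM includes replicate 3, so a low gene could reach it through a high level there. The median level of the 12 was 99.3 in replicate 3, against 4.07 and 3.01 in replicates 1 and 2. *ule-4*, expressed in the uterine lumen of adults, had 114 normalized CPM in replicate 3, against 1.38 and 0.312 in replicates 1 and 2. *clx-1* had 49.7 in replicate 3, against 0 and 0 in replicates 1 and 2, which was at least 132-fold higher in replicate 3 than in replicate 1, taken at its floor of 3 counts.

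Germ line genes were higher in replicate 3 by less. The 6 germ line markers summed to 371 normalized CPM in replicate 3, against 163 and 55.1 in replicates 1 and 2. *gld-1*, a translational repressor of the germ line, had 147 normalized CPM in replicate 3, against 23.4 and 10.3 in replicates 1 and 2. *glh-1*, a P granule helicase, had 88.2 in replicate 3, against 71.4 and 18.6 in replicates 1 and 2. *pgl-1* had 71.4 in replicate 3, against 45.2 and 17.1 in replicates 1 and 2. Of 10 P granule genes with a mean of at least 10 normalized CPM, 9 were highest in replicate 3 and 1 stood above both others there, against 37% and 1.55% of all genes. The 9 sperm markers summed to 1.71 normalized CPM in replicate 3, against 5.39 and 3.22 in replicates 1 and 2. Of these *spe-38* and *msp-31* had no count in any library. The 35 major sperm protein genes summed to 11.07 normalized CPM in replicate 3, against 22.6 and 4.78 in replicates 1 and 2. Without the yolk, oocyte and P granule lists, 111 genes stood above in replicate 3, against 129 with them, and the part of these genes in the other differences of replicate 3 was not tested.

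The ribosomal RNA loci and a few mRNAs were among the genes furthest below in replicate 3. *igdb-1* had 0 normalized CPM in replicate 3, against 25.2 and 40.7 in replicates 1 and 2. *rga-2*, a gene of the epidermis, had 0.245 in replicate 3, against 26.1 and 19.5 in replicates 1 and 2. With replicate 3 taken at its floor of 3 counts, *igdb-1* was at least 277-fold lower there than in replicate 2. The lectin gene *clec-78* (overlapping *W02C12.2*) had 26.5 in replicate 3, against 335 and 120.5 in replicates 1 and 2. No dauer-enriched collagen and 3 hedgehog-related genes were 4-fold below both others in replicate 3, against 1.65% of all genes, so the lower level of the collagens there was broad but under 4-fold against the lower of the others.

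The ratio between libraries followed the exon length of genes. Among protein-coding genes with up to 500 bases of exon, the median log2 ratio of replicate 3 over the mean of replicates 1 and 2 was 0.44, and replicate 3 was highest in 60.0% of 412 genes. It was 0.21 for lengths of 500 to 1000 bases, 0.02 for 1000 to 1500, -0.17 for 1500 to 2000, -0.23 for 2000 to 3000 and -0.47 for 3000 to 5000. Above 5000 bases it was -0.96, with replicate 3 highest in 6.46% of 356 genes. Replicates 2 and 1 differed in the same direction, with a median of 0.25 up to 500 bases and -0.74 above 5000 for replicate 2 over replicate 1. Without ribosomal protein and collagen genes the median of replicate 3 over the others was 0.36 up to 500 bases and -0.96 above 5000. Ribosomal protein genes are short, with a median exon length of 532 bases, as are FMRFamide-like and *nlp* genes, with medians of 644.5 and 596. Heterochronic genes are long, with a median of 3837 bases, and so are vitellogenin genes, with a median of 4935 bases. The part of exon length in the family results was not tested. *vit-2* and *vit-6*, with 4934 and 5064 bases of exon, were highest in replicate 3.

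**Figure D5:**
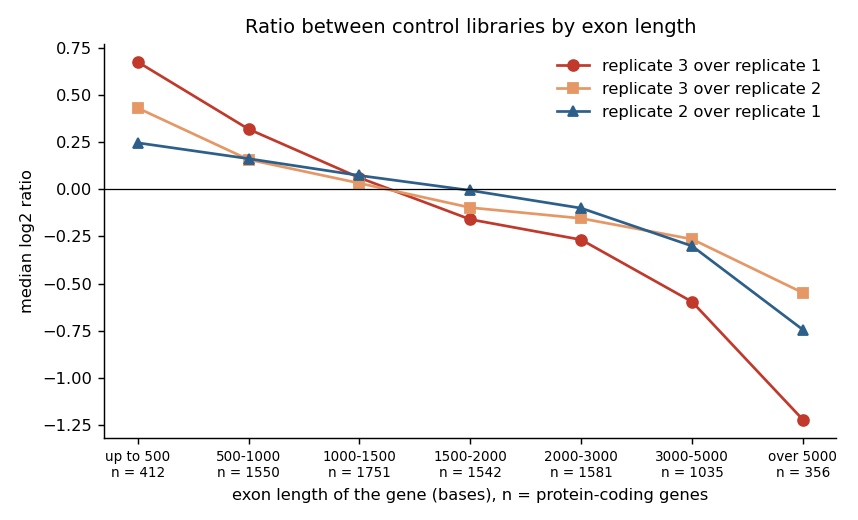
Median log2 ratio between control libraries for protein-coding genes with a mean of at least 10 normalized CPM, in 7 bins of exon length, for replicate 3 over replicate 1 (circles), replicate 3 over replicate 2 (squares) and replicate 2 over replicate 1 (triangles). Replicate 3 over replicate 1 is 0.68 in the bin up to 500 bases (412 genes) and -1.22 in the bin over 5000 bases (356 genes).

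Replicate 1 stood apart mainly above the others. *F07B7.12* had 43.1 normalized CPM in replicate 1, against 0 and 0 in replicates 3 and 2. Its expected count in replicate 1 was 343.73, not a whole number, so its reads may be split with other genes. *H39E23.3* had 1519 in replicate 1, against 135 and 50.3 in replicates 3 and 2. *fip-1* (overlapping *twk-7*), named for its induction by fungi, had 117 normalized CPM in replicate 1, against 8.87 and 0.104 in replicates 3 and 2. *fip-5* had 45.7 in replicate 1, against 1.37 and 2.49 in replicates 3 and 2. The single gene at least 4-fold below both others in replicate 1 was *W08A12.2* (overlapping *W08A12.3*), with 5.51 in replicate 1, against 36.2 and 28.7 in replicates 3 and 2.

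Replicate 2 stood apart mainly below the others. *nspc-14*, a nematode-specific peptide gene, had 0 normalized CPM in replicate 2, against 20.6 and 26.3 in replicates 3 and 1. *col-13* had 0 in replicate 2, against 14.5 and 19.9 in replicates 3 and 1. The cytochrome P450 gene *cyp-35B3* had 0 in replicate 2, against 11.9 and 32.6 in replicates 3 and 1. Whether reads of *nspc-14*, *col-13* and *cyp-35B3* were split with close copies was not tested. Above the others stood *F45D11.15* and *F45D11.16*, which had equal counts in every library and equal exon lengths, so that reads may be split between them, with 113 in replicate 2, against 0 and 0 in replicates 3 and 1 for each. *C41G6.13* had 43.1 in replicate 2, against 0 and 0 in replicates 3 and 1. The *pud* genes are named for proteins high in *daf-2* mutants, and their close copies may share reads. *pud-1.1* had 46.3 normalized CPM in replicate 2, against 0 and 0.728 in replicates 3 and 1. *pud-2.2* had 0 in replicate 2, against 16.5 and 45.4 in replicates 3 and 1. These members thus lay on opposite sides in replicate 2.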

How the data were processed

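Messenger RNA of hand-picked dauer larvae was sequenced, and 3 control libraries were used. The deposited table holds expected counts per gene, which the authors made from trimmed reads with STAR and RSEM on the WBcel235 genome. The submitters' processing notes name Trimmomatic 0.39, STAR 2.4.2a and RSEM 2.1. RSEM shares reads among near-identical copies, so that counts need not be whole. Whether strand was used in counting is not given in the sources used here. A second deposited table of normalized counts was not used, and neither was a table of the authors' own comparisons, which holds fold changes and p-values.

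Expected counts of all biotypes were scaled to CPM with TMM factors over the control libraries (edgeR 4.0.16, R 4.3.3), with RLE factors (DESeq2 1.42.0) and plain totals as alternatives. Counts were not rounded for CPM, since no count test was run. They were rounded for the RLE factors and for the biological coefficient of variation. The scripts (Python 3.11, pandas 2.3.3, NumPy 2.4.6, matplotlib 3.10.9) were tested on simulated data. Ratios between libraries used a pseudocount of 1 CPM and genes with a mean of at least 10 CPM. A gene was called steady where the highest library was at most 25% above the lowest and variable at a ratio of at least 4. Exon lengths came from Ensembl release 115, in which 46817 of the listed genes were found. Overlaps were read from the gene coordinates of the deposited table, among genes with a mean of at least 1 CPM. The alternatives were other scalings, filters, pseudocounts, denominators and sets of libraries.

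Genes were named by a rule: the 20 highest by mean CPM, the 10 highest per length, the 8 steadiest at 100 CPM or more, the 6 furthest above and the 6 furthest below in each library, and the highest members of each gene list. Other members of the regulator, heterochronic, qPCR, collagen and marker lists could also be named. The genes described and the lists were chosen with earlier results of these data known. No test was run and no p-value is given, since 1 genotype was described. The depth of each library is given with the results, and floors of 3 counts cover counting error only, since reads amplified by PCR are not independent molecules.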

Additional observations from a re-analysis of the deposited data

How the results depend on the processing

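Steady genes numbered 809, against 182 with a mean of at least 100 CPM, 1656 with no filter and 2026 to 3358 with 1 library left out. Variable genes numbered 950, against 2702 with a mean of at least 1 CPM or with no filter, 202 with at least 100 CPM and 134 to 769 with 1 library left out. Replicate 3 stood above both others in 129 genes, against 196 with library totals, 398 with a mean of at least 1 CPM or no filter and 11 with at least 100 CPM. It stood below in 137, against 75 with library totals, 382 with at least 1 CPM or no filter and 34 with at least 100 CPM. Replicate 1 stood apart in 29 genes, against 118 with at least 1 CPM or no filter and 10 with at least 100 CPM. Replicate 2 stood apart in 73, against 249 with at least 1 CPM or no filter, 5 with at least 100 CPM and 124 with a pseudocount of 0.1 CPM. The filter changed the share called as well as the number of genes examined, with 20.1% of genes variable at a mean of at least 1 CPM and 11.4% at 10 CPM, and the cause of these shifts was not tested. With 1 library left out, the share of counts in the 20 highest genes ran from 11.7% to 18.2%, that of ribosomal proteins from 4.48% to 10.1% and that of collagens from 6.70% to 11.4%. The median log2 ratio of replicate 3 over the others kept its sign in every alternative run for dauer-enriched collagens (-1.70 to -0.93), adult-enriched collagens (2.61 to 3.26) and ribosomal proteins (1.18 to 1.84). Medians near 0, such as those of gluconeogenesis, large chaperone and detoxification genes, changed sign with library totals. Alternatives chosen after seeing the data were the length bins without ribosomal protein and collagen genes, the vitellogenin share with each library left out (0.0182% to 1.00%) and the count of 111 genes without the yolk, oocyte and P granule lists. No paired analysis was possible because the libraries of 1 genotype were described and no groups were compared. With 3 libraries an SD can rest on 1 of them, and for the yolk and ribosomal protein shares this was replicate 3.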

Other observations

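Several gene groups outside the leading families were also measured. Of 72 histone genes, 15 had a mean of at least 10 normalized CPM, and *his-72*, a variant H3 histone gene, had 240.3 normalized CPM in replicate 3, against 164 and 195 in replicates 1 and 2. Most histone mRNAs of animals lack a poly(A) tail, and a poly(A) library is not made to capture those. Of 222 F-box A genes, whose family encodes adaptors of protein degradation, 15 reached the same mean, and *fbxa-156* was even, with 66.9 in replicate 3, against 62.4 and 59.7 in replicates 1 and 2. Of 9 intracellular lipid binding genes, 7 reached it, and *lbp-9* had 342.9 in replicate 3, against 225 and 160 in replicates 1 and 2. Of these, 6 of 15 F-box A genes and 3 of 7 lipid binding genes were highest in replicate 3, near the 37% of all genes.

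The summed normalized CPM of marker genes was lowest in replicate 3 for each of 5 larval tissues, whereas as shares of library totals the intestine sum was lowest in replicate 1 and the pharynx sum in replicate 2. The 5 body wall muscle markers summed to 5664 normalized CPM in replicate 3, against 22273 and 13912 in replicates 1 and 2. Their median exon length is 6104 bases, and the part of exon length in this sum was not tested. The 8 neuron markers summed to 2083 in replicate 3, against 3591 and 3856 in replicates 1 and 2. *ida-1*, a protein of dense core vesicles, had 525 in replicate 3, against 1341 and 1454 in replicates 1 and 2. The 7 epidermis markers summed to 439.7 in replicate 3, against 853 and 959 in replicates 1 and 2. Most of this sum was *bli-4* (overlapping *mut-2*), with 229 in replicate 3, against 627 and 662 in replicates 1 and 2. Of the 7 epidermis markers, 5 were lowest in replicate 3, whereas *elt-3* and *dpy-7* were highest there. The 8 intestine markers, with 1162 in replicate 3 against 1480 and 1376 in replicates 1 and 2, and the 5 pharynx markers, with 382 in replicate 3 against 675 and 398 in replicates 1 and 2, differed less. The gut transcription factor gene *elt-2* had 22.5 in replicate 3, against 26.6 and 37.5 in replicates 1 and 2. All of these lists summed above 0 in each library.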
